A study of Arabidopsis thaliana with 4 samples.

Results

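A set of 10 Aux/IAA genes of *Arabidopsis thaliana* were followed through the chromatin loops bearing H3K4me3 in Col-0, the wild type, and in the mutant *myc2*. They are IAA1 (AT4G14560), IAA2 (AT3G23030), IAA3 (AT1G04240), IAA4 (AT5G43700), IAA7 (AT3G23050), IAA8 (AT2G22670), IAA9 (AT5G65670), IAA14 (AT4G14550), IAA16 (AT3G04730) and IAA17 (AT1G04250). These are 10 of 27444 protein-coding genes and 10 of the 29 genes of the Aux/IAA family. A loop was counted for a gene when 1 of its anchors overlapped the stretch from 1 kb upstream of the transcription start site (TSS) to the transcript end. By this rule each gene had exactly 1 anchor, and the 10 anchors took part in 54 of 36723 loops in Col-0 and in 54 of 32312 loops in *myc2*.

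Chromatin came from the aerial parts of seedlings aged 2 weeks, grown at 22 °C with 16 h of light and 8 h of darkness. The labels give the mutant only as *myc2* without naming its allele, and they name no hormone treatment for either genotype. In ChIA-PET, crosslinked chromatin is enriched with an antibody against H3K4me3 and DNA ends that lie near each other are ligated, so that each junction is sequenced as a paired-end tag (PET). The authors merged the 2 biological replicates of each genotype before loops were called, although each deposited list is attached to the first replicate alone. One loop list per genotype was therefore compared, no p-value between genotypes could be computed, and every interval given here is a 95% interval for counting error only.

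Aux/IAA proteins are short-lived repressors of auxin responses. They bind auxin response factors (ARFs) at auxin-responsive promoters and recruit TOPLESS corepressors. Auxin brings them together with TIR1/AFB receptors, the F-box subunits of an SCF ubiquitin ligase, after which they are degraded and the ARFs are released. Many Aux/IAA genes are themselves induced by auxin, which closes a feedback loop. MYC2, the gene mutated in the second group, encodes a bHLH transcription factor of jasmonate signalling that binds the G-box. H3K4me3 is a mark of the beginning of transcribed genes.

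The promoters of IAA1, IAA3, IAA7 and IAA8 are shown because they hold TGTCTC, an auxin response element, or CACGTG, the G-box, within 300 bases upstream of the TSS. They were read from the RefSeq TAIR10.1 genome, which shares its nuclear coordinates with the TAIR10 build of the loop lists. Each runs 5′ to 3′ on the strand of its gene and ends at the base before the TSS. Capitals mark these letters and TGTCGG, a variant also bound by ARFs, each searched on both strands. On the opposite strand TGTCTC reads GAGACA and TGTCGG reads CCGACA.
IAA1, chr4:8360696-8360995, plus strand: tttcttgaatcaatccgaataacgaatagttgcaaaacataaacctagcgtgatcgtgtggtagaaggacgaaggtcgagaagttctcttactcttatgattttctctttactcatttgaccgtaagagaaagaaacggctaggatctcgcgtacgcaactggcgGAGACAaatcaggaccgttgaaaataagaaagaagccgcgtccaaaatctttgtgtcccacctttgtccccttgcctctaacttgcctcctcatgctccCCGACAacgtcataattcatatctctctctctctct
IAA3, chr1:1129690-1129989, minus strand: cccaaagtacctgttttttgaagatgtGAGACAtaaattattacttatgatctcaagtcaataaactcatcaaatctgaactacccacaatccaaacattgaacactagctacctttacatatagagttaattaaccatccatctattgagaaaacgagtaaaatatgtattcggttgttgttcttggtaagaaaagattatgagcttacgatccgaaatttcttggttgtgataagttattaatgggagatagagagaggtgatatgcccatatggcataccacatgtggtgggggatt
IAA7, chr3:8194306-8194605, plus strand: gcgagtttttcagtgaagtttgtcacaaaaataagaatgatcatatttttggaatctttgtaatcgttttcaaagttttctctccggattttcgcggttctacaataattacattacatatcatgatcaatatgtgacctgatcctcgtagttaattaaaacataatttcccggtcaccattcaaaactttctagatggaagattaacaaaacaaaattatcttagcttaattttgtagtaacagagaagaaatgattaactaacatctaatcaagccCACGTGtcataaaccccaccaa
IAA8, chr2:9636046-9636345, plus strand: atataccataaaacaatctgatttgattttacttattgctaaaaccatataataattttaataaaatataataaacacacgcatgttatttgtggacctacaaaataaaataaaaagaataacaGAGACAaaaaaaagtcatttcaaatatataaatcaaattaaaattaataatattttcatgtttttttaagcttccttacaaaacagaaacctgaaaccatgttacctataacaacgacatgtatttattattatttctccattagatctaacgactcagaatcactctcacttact

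Among the 10 promoters, 3 held TGTCTC, compared with 13% of all 27443 promoters of this length. The variant TGTCGG was found upstream of IAA1 and of IAA16, and in 4.91% of all promoters. The G-box was found only upstream of IAA7, from 22 to 17 bases before its TSS, and in 7.09% of all promoters. These matches describe letters in a window and were not tested for binding.

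All 10 genes carried an H3K4me3 anchor with loops in both genotypes. The members were chosen with earlier results of these data known, so their number with loops cannot be set against other genes. Of all 29 Aux/IAA genes 19 had a loop in either list, and of all protein-coding genes 64.8% had one. The anchors began inside the transcribed region. Their upstream edge lay 33 to 318 bp downstream of the TSS, with a median of 219.5 bp, and all 10 lay downstream of it. Over 15362 anchors with a gene, the median was 3 bp and the quartiles were -72 bp and 107 bp, and 50.8% began downstream of the TSS. The edges of 8 of the 10 were beyond the upper quartile, those of IAA8 and IAA7 being the exceptions at 33 and 86 bp. In the background each anchor was taken with the gene of largest overlap, of at least 50% of the anchor. By that rule the IAA1 anchor would go with its neighbour AARE, whereas its edge of 224 bp is measured from IAA1. The start codon was that of the longest annotated coding sequence of each gene, and other coding sequences were not used. Measured from it, 6 of 10 were beyond the upper quartile. The anchors of IAA1, IAA2 and IAA3 began downstream of this start codon, compared with 8.07% of all anchors. The 300 bases of promoter shown above were thus outside the anchor in every case. The member anchors had a median length of 1195.5 bp, and all anchors one of 880 bp.

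Tag counts, the reads that fall in an anchor, gave a level of H3K4me3 signal at each gene. Anchors of the 10 genes held 1136 to 2723 tags in Col-0 and 836 to 2252 tags in *myc2*. Per kb of anchor, IAA9 was highest in both lists, with 2923 tags per kb in Col-0 and 2594 in *myc2*, and IAA3 was lowest, with 1010 and 686 tags per kb. In Col-0, IAA3 and IAA16, at 1020 tags per kb, were nearly equal. IAA17 and IAA1 were also nearly equal, at 1928 and 1912 tags per kb.

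In *myc2*, every one of the 10 anchors held fewer tags than in Col-0, as did most anchors of the genome. The tags are not scaled for depth. Library depths were not used here, so depth and a general loss of signal cannot be told apart by these tags. Fewer cells of a type and a lower signal per cell cannot be told apart in such whole shoots. Over 14742 anchors present in both lists the median tag ratio of *myc2* to Col-0 was 0.775, with 0.635 and 0.902 at the 5th and the 95th percentile. Summed over the 10 anchors, 17625 Col-0 tags stood against 13931 *myc2* tags, at a ratio of 0.790 (0.773 to 0.808). None of the 10 ratios was under 0.620 or over 0.968, the limits set for a low or a high ratio, which 3.71% and 0.861% of all anchors passed. IAA3, also known as SHY2 and a repressor that limits the root meristem, had 1343 tags in Col-0 and 913 in *myc2*, and its ratio of 0.680 (0.624 to 0.740) was the lowest of the 10. IAA9, whose tomato counterpart restrains fruit set, had 2537 and 2252 tags and the highest ratio, 0.888 (0.838 to 0.940). IAA14 and IAA16 were close to it, with ratios of 0.873 (0.806 to 0.946) and 0.862 (0.796 to 0.934). These last 3 intervals overlapped and lay above the genome median, while that of IAA3 lay below it. The anchor of IAA1 also lay wholly within the region assigned to its neighbour AARE, an aminopeptidase gene, so its tags and loops cannot be given to IAA1 alone. The anchors of IAA2 and IAA3 overlapped AT3G23020 and AT1G04230 in part.

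Loops per gene were counted in the lists as deposited, which start at 10 PETs in Col-0 and at 5 PETs in *myc2*. In Col-0 and *myc2*, IAA1 had 9 and 8 loops, IAA2 had 4 and 6, IAA3 had 7 and 4, IAA8 had 3 and 4, and IAA17 had 6 and 7. IAA4 had 8 loops, IAA7 had 5, IAA9 had 9, and IAA14 and IAA16 had 3 each in both lists. The median change was 0, and that over all genes with a loop was -1. Only IAA3 fell by at least 3 loops, as did 13.5% of the 17797 genes with a loop. With a Col-0 minimum of 12 PETs, set to match the lower PETs of *myc2*, IAA3 fell by 1 loop, from 5 to 4, and IAA4 rose from 5 to 8. With a minimum of 10 PETs in both lists, which removes loops from *myc2* alone, 54 loops in Col-0 stood against 21 in *myc2*. IAA9 then fell by 7 loops, IAA1 and IAA4 by 5, IAA3 and IAA7 by 4, IAA16 and IAA17 by 3, IAA2 by 2 and IAA14 by 1, and IAA8 had 3 in each. In the lists as deposited no member rose by at least 3 loops, which 2.89% of genes did.

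Of the 64 distinct loops of these genes, 44 were present in both lists, 10 in Col-0 alone and 10 in *myc2* alone. A loop counted as present in the other genotype when a loop there overlapped both of its anchors by at least 1 bp. The 10 Col-0 loops without a counterpart made up 18.5% (9.25 to 31.4%) of the 54 loops, compared with 32.2% of all Col-0 loops. If lost at the rate of all Col-0 loops with the same PETs, 16.3 of the 54 would lack a counterpart, or 30.3%. Of the 54 *myc2* loops, likewise 18.5% (9.25 to 31.4%) had no counterpart in Col-0, compared with 23% of all *myc2* loops. The intervals treat loops as independent although loops of a gene share an anchor. A loop missing from a list may still have had PETs below its minimum. With a minimum of 10 PETs in both lists the Col-0 share was 61.1%, compared with 72.3% of all loops, and the *myc2* share 0%, compared with 1.64%.

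Loops found in Col-0 alone tended to have fewer PETs than shared loops. Among Col-0 loops of like span they were not uniformly weak, with percentiles from 7.57 to 91.3. They held 10 to 20 PETs with a median of 13 PETs, and shared loops held 10 to 51 PETs in Col-0 with a median of 18.5 PETs. By strength, 8 of the 10 had fewer than 15 PETs, and none of the 14 member loops with at least 25 PETs in Col-0 was missing from *myc2*. This followed all Col-0 loops. Of those with 10 to 11 and 12 to 14 PETs 65.1% and 49.5% lacked a counterpart. Of those with 25 to 39 PETs 3.51% lacked one, and of those with 40 or more 0.114%. The loops in *myc2* alone held 5 or 6 PETs. They were also longer, with a median span of 27 kb, than shared loops at 13.3 kb and Col-0-only loops at 20.6 kb. All loops of the Col-0 list had a median span of 11.2 kb. The Aux/IAA loops had a median of 17 and 7 PETs in Col-0 and *myc2*. Among loops of like span, between 1/1.2 and 1.2 times their own, their PETs stood at a median percentile of 56.8 in Col-0 and 51.6 in *myc2*.

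**Figure D1:**
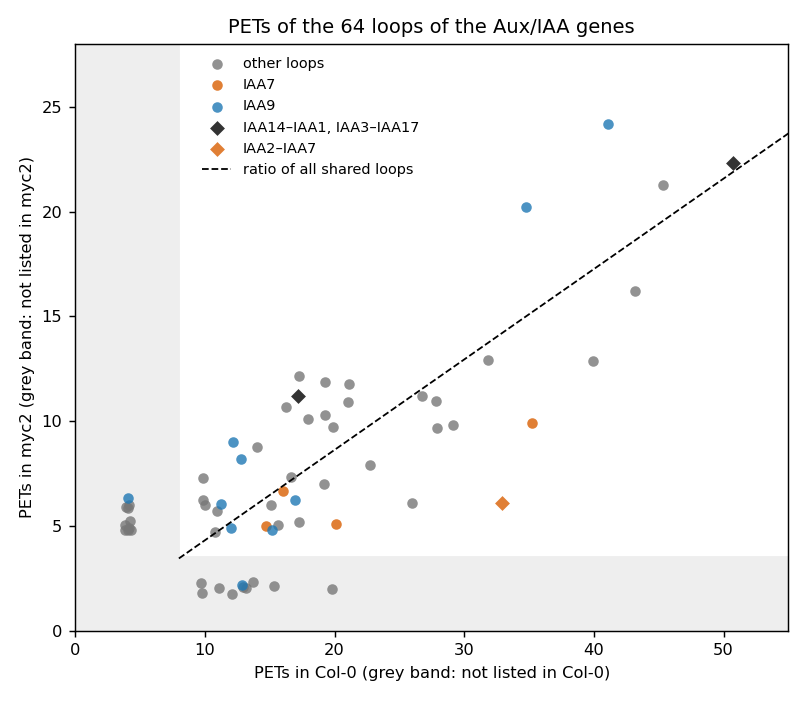
PETs of each of the 64 loops in Col-0 (x axis) and in *myc2* (y axis), 1 point per loop moved by a small random amount so that equal values can be seen. The dashed line is the ratio of all shared loops, 0.432; points in the grey bands are loops missing from 1 list and have no measured value there. Of the 5 loops of IAA7 4 lie under the line, and its loop to IAA2 lies farthest below it at 33 and 6 PETs.

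The 44 shared loops summed to 965 Col-0 PETs and 425 *myc2* PETs, which gives a ratio of 0.440 (0.392 to 0.494). For all 24896 shared loops the ratio was 0.432 (0.430 to 0.434), so the 10 genes together did not depart from the genome beyond counting error. Single member loops ranged from 0.182 to 0.750. Relative to the genome ratio, 4 of the 44 were lower by at least 1.5 times and 4 were higher by at least 1.5 times, with 11.7% and 11.5% of all shared loops. The 4 lower loops were IAA2 to IAA7, IAA7 to AT3G23020, IAA7 to the RLP36 and CIPK7 anchor, and IAA17 to AT1G04230. The 4 higher loops joined IAA9 to AT5G65685, IAA2 to AT3G22980, IAA4 to KCS20 and IAA1 to emb2739. Thus 3 of the 4 lower loops ended at IAA7. Those to IAA2 and to AT3G23020 have their other ends close together, at chr3:8180698-8181815 and chr3:8179171-8179951, and may not be separate contacts.

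IAA7 had the lowest ratio of loop PETs among the 10 genes without a low ratio of tags. IAA7, named AXR2 after a dominant auxin-resistant mutant, had 5 loops, all present in both lists. Its loop to the anchor of RLP36, a receptor-like protein gene, and CIPK7, a CBL-interacting kinase gene, had 35 PETs in Col-0 but 10 in *myc2*. That to IAA2 had 33 and 6 PETs, and that to AT3G23020 had 20 and 5 PETs. The loop to AT3G22980 had 16 and 7 PETs, and that to CFM3A, a chloroplast splicing factor gene, had 15 and 5 PETs. Each of these 5 loops had fewer PETs in *myc2*, and 4 of the 5 ratios lay under that of the genome. The loops to IAA2 and AT3G23020, both among these 4, end at anchors close together. Pooled, 119 Col-0 PETs and 33 *myc2* PETs gave a ratio of 0.277 (0.183 to 0.411), whose interval did not reach 0.432. Among 11436 genes with at least 3 shared loops this ratio stood at percentile 0.743, the median gene having 0.431 and the 5th percentile being 0.328. All shared loops of like strength, within 10% of the Col-0 PETs of these 5, would give 49.9 PETs in *myc2*, and the 33 observed were 0.661 of this, at percentile 0.770 of the genes. Without the loop to IAA2 the ratio was 0.314 (0.196 to 0.489), an interval that holds the genome value.

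The tags of the IAA7 anchor numbered 1671 and 1293 in Col-0 and *myc2*, at a ratio of 0.774 (0.719 to 0.833), which equals the genome median within error. The 5 anchors that IAA7 looped to had 15 further shared loops not ending at IAA7. Those summed to 345 and 138 PETs, at a ratio of 0.400 (0.326 to 0.489). The IAA7 interval overlapped this one. IAA7 was singled out after the values of all 10 genes were seen, and as 1 list per genotype was available, a difference between replicates cannot be told apart from one between genotypes.

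At the other end, IAA9 had 9 loops in each list, 8 of them shared. Its strongest loops led to AT5G65650, with 41 and 24 PETs, and to WAVH2, a RING-type ubiquitin ligase gene of the WAVY GROWTH family, with 35 and 20 PETs. The third was that to bHLH093, a bHLH factor gene, with 17 and 6 PETs. The shared loops held 156 and 83 PETs, a ratio of 0.532 (0.403 to 0.699), which was the highest of the 10 and at percentile 89.8 of genes. Its interval held the genome ratio. The other 8 genes had ratios from 0.393 (0.254 to 0.594) at IAA2 to 0.489 (0.280 to 0.831) at IAA14, and all of these intervals held 0.432. Neighbours in this order did not differ beyond their intervals. IAA14 and IAA16, with 2 shared loops each, had the widest intervals.

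**Figure D2:**
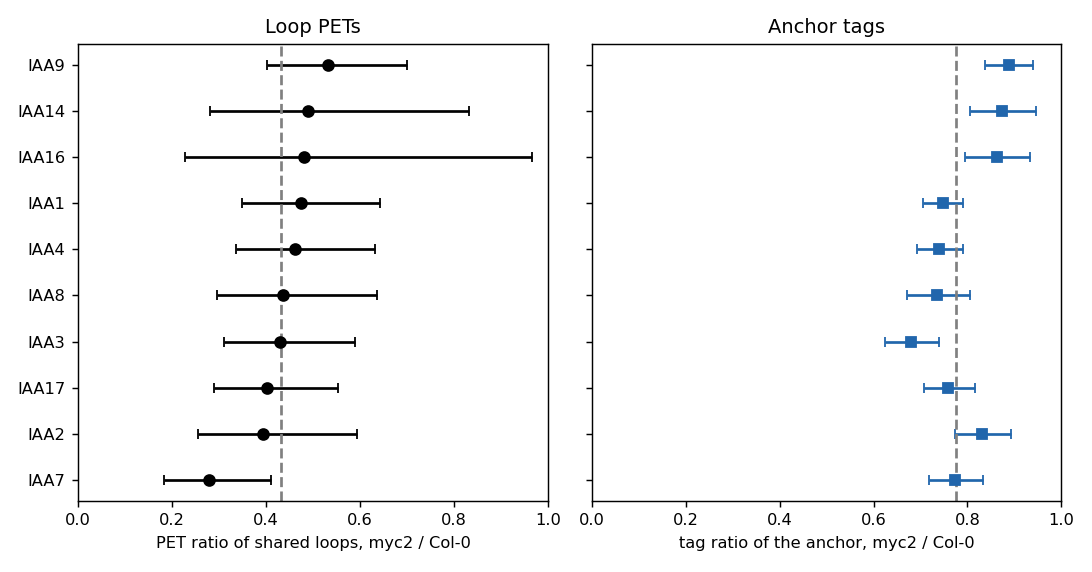
Ratio of *myc2* to Col-0 for the PETs of each gene's shared loops (left) and for the tags of its anchor (right), with 95% intervals for counting error; dashed lines mark the ratio of all shared loops, 0.432, and the median over anchors, 0.775. IAA7 lies lowest on the left at 0.277 and at 0.774 on the right, while IAA3 lies lowest on the right at 0.680.

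Among the 10 genes, 6 form 3 neighbouring pairs, IAA14 with IAA1 on chromosome 4, IAA2 with IAA7 on chromosome 3, and IAA3 with IAA17 on chromosome 1. Each pair was joined by a loop in both genotypes, although the IAA1 anchor also lies in AARE, so that loop cannot be given to IAA1 alone. In all 3 pairs the genes are transcribed away from each other, with no protein-coding gene and no other anchor between them. Their start sites lie 10.7, 12.5 and 6.39 kb apart. Such distances are uncommon, since the median over 6067 divergent neighbouring gene pairs was 1.37 kb, and 96.4%, 97.2% and 91.3% of those pairs were closer. Of 145 divergent neighbours with start sites 6 to 13 kb apart and an anchor each, 86.9% were joined in Col-0, 80.0% in *myc2* and 74.5% in both. For all 3542 pairs of adjacent anchors 7 to 15 kb apart the shares were 84.3%, 72.4% and 67.8%. A loop between the genes of such a pair was thus the usual case. No other loop in either list joined any 2 of the 29 Aux/IAA genes.

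**Figure D3:**
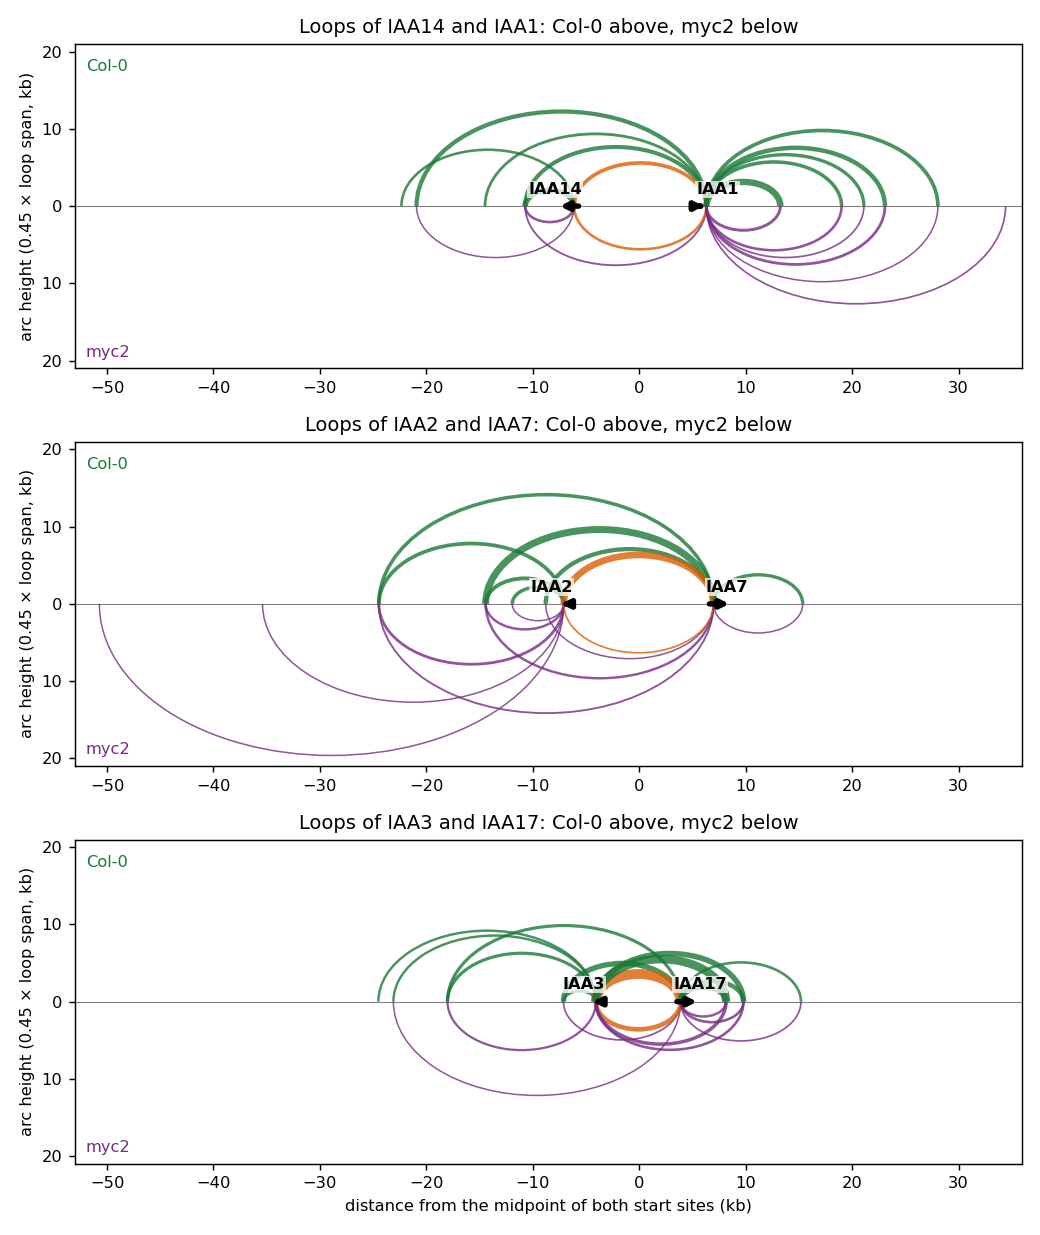
Loops of the 3 neighbouring pairs within their chromosomes, with Col-0 above and *myc2* below the line. The x axis is the distance in kb from the midpoint of both start sites, arc height is 0.45 times the loop span, line width grows with PETs, black arrows are the transcribed IAA genes, and the orange arcs join the pair. The orange arc of IAA2 and IAA7 goes from 33 PETs above to 6 PETs below, and that of IAA3 and IAA17 from 51 to 22 PETs. The IAA1 end of the arc to IAA14 also lies in AARE.

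IAA3 and IAA17 had the strongest of these loops. It joined the anchors at chr1:1128145-1129474 and chr1:1136305-1137244, the former reaching past the transcript end and overlapping AT1G04230 and the latter within the gene, and held 51 PETs (38.0 to 67.1) in Col-0, where *myc2* had 22 PETs (13.8 to 33.3). The ratio of 0.431 (0.249 to 0.724) equalled that of the genome. It was the strongest loop of both genes in both lists, at percentiles 95.8 and 94.8 of loops of like span. IAA17, or AXR3, is known from dominant mutants with strongly altered root gravitropism. Both genes also looped to MPI7, a prenylated Rab acceptor gene, and to RPS15, a ribosomal protein gene. IAA3 did so with 43 and 27 PETs in Col-0 and 16 and 11 in *myc2*, and IAA17 with 28 and 21 PETs in Col-0 and 10 and 11 in *myc2*. In Col-0 the pair shared 4 of its 7 connecting anchors, and in *myc2* 2 of 7.

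The 3 loops that IAA3 lost were those to AT1G04190 and AT1G04200, with 10 PETs each, and to AT1G04230, with 13 PETs. RefSeq names AT1G04190 TPR3, a tetratricopeptide protein that is no TOPLESS-related corepressor. IAA17 kept its loop to AT1G04230, with 26 and 6 PETs, lost one to AT1G04210 with 14 PETs, and had loops of 5 PETs to AT1G04200 and to AT4G26650 in *myc2* alone. The last runs between chromosomes 1 and 4. Only the *myc2* list holds such loops, 256 in all with a median of 5 PETs.

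IAA2 and IAA7 were joined by 33 Col-0 PETs (22.7 to 46.3) and by 6 *myc2* PETs (2.20 to 13.1), between anchors at chr3:8180698-8181815 and chr3:8194692-8195964. The ratio of 0.182 (0.0623 to 0.439) was the lowest of the 44 shared loops, and its interval just held the genome ratio. Of 2429 shared loops with Col-0 PETs within 3 of these, 3.54% had a ratio this low or lower, and their median was 0.375. The like shares were 69.1% for the IAA3 and IAA17 loop and 88.5% for the IAA14 and IAA1 loop. As this loop was the lowest of the 44, its share is a description and no test. Among loops of like span, this one went from percentile 93.8 in Col-0 to 30.7 in *myc2*. It was the strongest loop of IAA2 in Col-0 and the third strongest in *myc2*. The remaining 3 shared loops of IAA2 gave a ratio of 0.529 (0.319 to 0.860), so its pooled ratio of 0.393 was lower with the loop to IAA7 than without it. IAA2 is a gene rapidly induced by auxin. Its loops to AT3G22980, to the RLP36 and CIPK7 anchor and to a second RLP36 anchor had 17, 18 and 16 PETs in Col-0 and 12, 10 and 5 in *myc2*. Loops of 5 PETs to ARFC1, a gene of an ADP-ribosylation factor and not of an auxin response factor, and to AT3G22970 were in *myc2* alone. IAA2 and IAA7 shared 2 of 5 connecting anchors in Col-0 and 2 of 7 in *myc2*.

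IAA14 and IAA1 were joined by 17 Col-0 PETs (9.90 to 27.2) and 11 *myc2* PETs (5.49 to 19.7), between anchors at chr4:8349074-8349945 and chr4:8361220-8362643. Of the second anchor 57.2% lies in the region of IAA1 and more in that of AARE, so the loop may equally be one of IAA14 to AARE. The ratio of 0.647 (0.274 to 1.46) was 1.50 times that of the genome and just short of being counted as higher. IAA14, or SOLITARY-ROOT, is known from a dominant mutant without lateral roots, and IAA1, or AXR5, from an auxin-resistant one. The loop stood at percentile 53.7 of loops of like span in Col-0 and at 77.9 in *myc2*. Both genes looped to NF-YB3, a gene of the CCAAT-binding factor NF-Y, IAA14 with 28 and 11 PETs and IAA1 with 19 and 7 PETs. That was their only common connecting anchor, 1 of 9 in Col-0 and 1 of 8 in *myc2*. Over all loops of the 2 lists that join anchors 7 to 15 kb apart, the median share of common connecting anchors was 33.3% in Col-0 and 27.3% in *myc2*.

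IAA1 looped most strongly to CIPK4, with 32 and 13 PETs, and to MDA1, a gene of a mitochondrial transcription termination factor-like protein, with 21 and 12 PETs. The loop of 20 PETs from IAA1 to AT4G14500 was the strongest Aux/IAA loop missing from *myc2*. In Col-0 it stood at percentile 91.3 of loops of like span, and of all Col-0 loops with 20 to 24 PETs, 13.6% lacked a counterpart. IAA14 had a loop of 5 PETs to that anchor in *myc2* alone, and one of 11 PETs to the neighbouring anchor of AT4G14490 in Col-0 alone. IAA1 also lost its loop of 12 PETs to CFM3B and had one of 6 PETs to AT4G14620 in *myc2* alone.

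The 4 genes outside pairs looped to genes of other families. IAA4 looped most strongly to AT5G43720, with 40 and 13 PETs, and to AT5G43680, with 23 and 8 PETs, followed by AT5G43670 with 19 and 10 PETs and AT5G43710 with 19 and 12 PETs. It lost a loop of 13 PETs to PnsB5, a subunit gene of the photosynthetic NDH complex, and had one of 5 PETs to AT5G43660 in *myc2* alone. IAA8 had 45 and 21 PETs to WAVH1, 29 and 10 to AT2G22650 and 20 and 10 to AT2G22690, and in *myc2* alone 6 PETs to AT2G22720. The loops of IAA9 to GTE7, a bromodomain protein gene, ended at different anchors in the lists, with 13 PETs and 6 PETs, so that each counted as without counterpart although the connecting gene was the same. IAA16 looped to SWP, the gene of the Mediator subunit MED14, with 17 and 7 PETs and to CLPS3, an mRNA 3′ end processing factor gene, with 10 and 6 PETs. Its loop of 15 PETs to AT3G04750 was in Col-0 alone and one of 6 PETs to AT3G04650 in *myc2* alone. The median percentile of the member loops given above thus spans strong loops, such as IAA9 to AT5G65650 at 97.5, and weak ones, such as IAA4 to AT5G43740 at 5.11 in Col-0.

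Several connecting genes at one locus resembled connecting genes at another. Identity was taken over the aligned bases of the longest coding sequences, which have 786 bases in IAA2 and 870 in IAA3. IAA1 and IAA2 were 84.5% identical over 496 aligned bases, and IAA7 and IAA14 81.9% over 690. The values were 81.5% over 558 bases for IAA3 and IAA4, and 72.6% over 977 for IAA8 and IAA9. Thus the IAA14 and IAA1 locus and the IAA2 and IAA7 locus hold the same 2 kinds of gene, each pair transcribed apart. Among the 75 genes at the anchors of these 7 loci, 5 further pairs between loci were similar by nucleotide BLAST at an E value of at most 1e-05. They were CFM3A and CFM3B (76.8% identity over 1473 aligned bases), AT1G04230 and AT5G43720 (79.7%), CIPK7 and CIPK4 (75.3%), AT3G22970 and AT4G14620 (71.1%), and WAVH1 and WAVH2 (67.2%). All 5 matched loci whose IAA genes were also each other's closest copies in this set. Genes near these loci without such an anchor were not compared. The count therefore has no background and cannot be read as a trait of connecting genes.

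The loops to these like genes were compared next. WAVH1 and WAVH2 were among the 2 strongest connections of IAA8 and IAA9, with 45 and 35 PETs in Col-0 and 21 and 20 PETs in *myc2*. CIPK4 held the strongest loop of IAA1 at 32 PETs in Col-0, and the anchor overlapping CIPK7 the strongest of IAA7 at 35 PETs. IAA1 and IAA7 are not each other's closest copies. IAA2, the closest copy of IAA1, was joined to the CIPK7 anchor by 18 PETs in Col-0. IAA14, the closest copy of IAA7, had no listed loop to CIPK4. AT5G43720 held the strongest loop of IAA4 at 40 PETs, whereas AT1G04230 was joined to IAA3 by 13 PETs and to IAA17 by 26. The loops from IAA2 to AT3G22970 and from IAA1 to AT4G14620 were both in *myc2* alone, at 5 and 6 PETs, and spanned 28.3 and 28.1 kb. CFM3A was joined to IAA7, and CFM3B to IAA1 and not to IAA14, the closest copy of IAA7. These comparisons were chosen after the values were seen and carry no test.

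**Figure D4:**
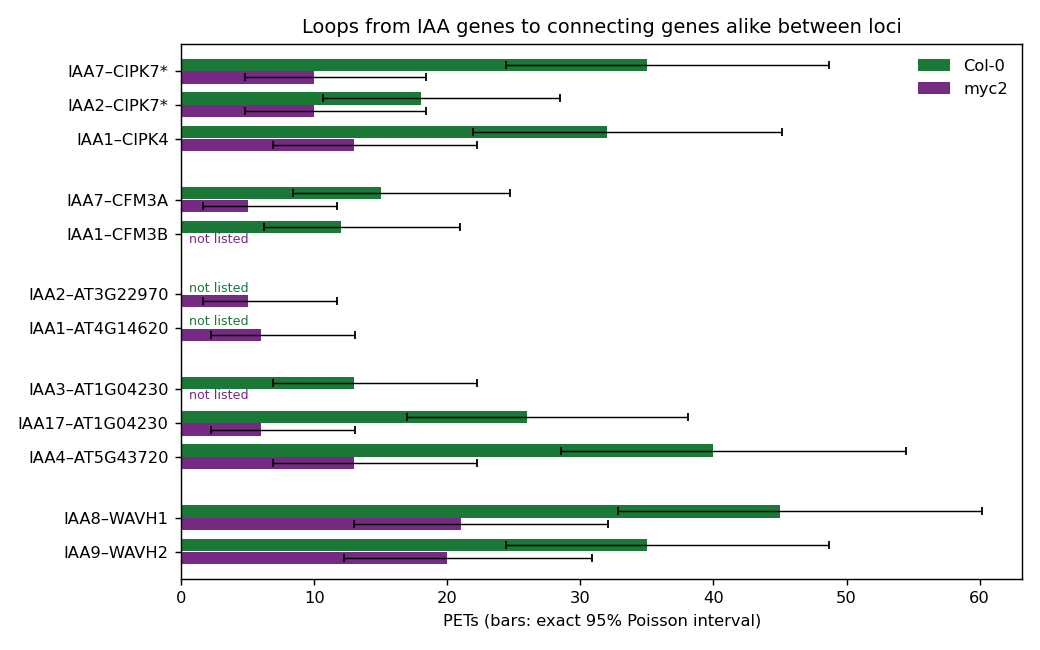
PETs of the loops from Aux/IAA genes to connecting genes that are alike between loci, with Col-0 in green and *myc2* in purple; bars start at 0, error bars are exact Poisson intervals, and "not listed" marks a loop missing from a list. The asterisk marks the CIPK7 anchor, most of which lies in RLP36. WAVH1 and WAVH2 have 45 and 35 PETs in Col-0, and AT3G22970 and AT4G14620 have loops in *myc2* only.

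Of the other 19 Aux/IAA genes, 9 had a loop in either list. By loops in Col-0, IAA11 came first with 11, and 8 in *myc2*, followed by IAA26 with 8 in each and by IAA12 with 6 and 9 and IAA13 with 6 and 7. IAA11 fell by 3 loops and IAA12 rose by 3, IAA27 fell from 3 to 1, and the rises of the remaining genes were of 1 loop. In the rest of the pathway, 29 of 30 listed genes had a loop, the exception being ARF5. The 6 receptor genes had the most loops, with a median of 12 in Col-0 and 9.5 in *myc2*. AFB4 had 27 and 29 loops over 3 anchors, TIR1 had 12 and 11, AFB1 had 12 and 10, and AFB3 had 12 and 9. AFB3 and AFB5 fell by 3 loops, the latter from 9 to 6. ASK1, a subunit gene of the SCF complex, rose from 1 to 5 loops and was the only 1 of the 30 to rise by at least 3. Of its 2 anchors, 1 had no listed loop in Col-0, where the minimum of PETs is higher. Other PET minimums were not tried on genes outside the 10. TPR2, a corepressor gene, rose from 4 to 6. The 14 ARF genes with a loop had medians of 4.5 and 4 loops, and none changed by 3 or more.

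As a check on the lists as a whole, the MYC2 gene had 2 anchors, with 2479 and 3562 tags in Col-0 and 1731 and 1423 in *myc2*. All 4 shoot markers looked at (RBCS1A, LHCB1.1, CAB3 and CA1) had loops, and of 4 root markers PHT1;1, COBL9 and RHD6 had none. SCR, which is also expressed in shoots, had 11 and 7 loops. The Col-0 list held 745505 PETs and the *myc2* list 297390, in loops of a median of 16 and 7 PETs.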

How the data were processed

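The authors processed the reads of 4 ChIA-PET libraries (2 per genotype) with ChIA-PET Tool V3 (linker filtering, mapping to TAIR 10, removal of redundant PETs). They called loops between given anchors from merged H3K4me3 ChIP-seq peaks at an FDR under 0.05. A minimum PET count was also required, which they chose by sequencing depth. The deposited lists start at 10 PETs in Col-0 and at 5 PETs in *myc2*. The aligner is not given in the sources used here. Replicates were pooled before calling. In the deposited lists each loop has its PET count and the tag count of either anchor, without scaling for depth. A p-value, an FDR and the −log10 of each, given per loop by the authors, were used only for a stricter FDR limit.

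Genes came from the RefSeq annotation of TAIR10.1, and no anchor ended past its chromosomes. PETs, tags and loops were counted per gene. Shares have exact binomial intervals, counts exact Poisson intervals, and ratios intervals from the exact binomial share of *myc2*. A loop was taken as higher or lower at 1.5 times the ratio of all shared loops, an anchor under 0.620 or over 0.968 as low or high, and a gene at a change of 3 loops. Matching and intervals were tested on simulated data. Connecting genes are those with the largest overlap of at least 50% of an anchor. Where no gene reached 50%, the anchor was named after another gene overlapping it. An anchor that overlapped a member was named after the member, also where another gene overlapped more of it.

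The members and gene lists were chosen with earlier results of these data known. Named are all members, for each up to 3 connecting genes with most Col-0 PETs, the connecting genes of loops in 1 list only, and, of the other auxin genes, the 3 with most loops and the 2 largest rises and falls. Genes named beyond this rule were chosen after their values were seen. Alternatives covered the anchor overlap (50%, promoter), PET minimums, an FDR under 0.001, the overlap of counterparts and the tag summary. Python 3.11.15, numpy 2.4.6, pandas 2.3.3, scipy 1.17.1, Biopython 1.88, BLAST 2.17.0 and matplotlib 3.10.9 were used.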

Additional observations from a re-analysis of the deposited data

How the results depend on the processing

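Of 46 recomputed summary values, 42 stayed within the interval of the reported value or within 1.5 times a reported count, and of 50 recomputed changes in loops of single genes 9 moved by more than 1 loop. Many of the 42 could not move. The anchor overlap settings (50%, promoter) kept the same loops, and a loop's PETs are the same in every setting. The 42 include the fall from 3 to 2 joined pairs, and the ratio of the pair then not listed was left out. With a minimum of 10 PETs in both lists, 21 *myc2* loops were left. Then 61.1% of Col-0 loops lacked a counterpart, compared with 72.3% of all Col-0 loops, and 0% of *myc2* loops lacked one (up to 16.1%), compared with 1.64% of all. The loop between IAA2 and IAA7, at 6 PETs in *myc2*, was then not listed, and 2 of the 3 pairs were joined in both lists. IAA1 and IAA4 then fell by 5 loops each, IAA7 by 4, IAA9 by 7, IAA16 kept none in *myc2*, and the changes of IAA2 and IAA17 turned from 2 and 1 to -2 and -3. This setting removes loops from *myc2* alone. With the Col-0 minimum raised to 12 PETs, the Col-0 share was 15.6% and that of all loops 24.1%, the *myc2* share 29.6% and that of all loops 30.7%, and the fall of IAA3 was 1 loop, short of 3, while IAA4 rose by 3. The median of single anchors gave a tag ratio of 0.767, below the genome median of 0.775, where the pooled ratio of 0.790 lay above it. Each shared loop of these genes has identical anchors in both lists, so that the overlap asked of a counterpart changed no value, and every listed loop passed the stricter FDR. No paired analysis was possible because the replicates of each genotype were pooled before loops were called, and for the same reason no replicate could be left out. Loops under 5 PETs in *myc2* and under 10 PETs in Col-0 are not listed, which limits what can be compared.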
